A study of Mus musculus with 20 samples.

Results

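The Cyp2c genes of the mouse encode a family of cytochrome P450 enzymes. The 10 members followed here are Cyp2c29, Cyp2c37, Cyp2c38, Cyp2c39, Cyp2c40, Cyp2c44, Cyp2c50, Cyp2c54, Cyp2c68 and Cyp2c70, out of 34933 named genes and 18 Cyp2c symbols in the deposited tables. They were chosen by symbol as Cyp2c genes expressed in liver, together with Cyp2c29, which earlier results of these data had shown to be high in mice given both compounds. Expression levels, and the comparisons of the combination with rosuvastatin and with vehicle, are therefore given as descriptions with no test. Cyp2c44 stands in the tables under Cyp2c23, a symbol that RefSeq lists as the same gene.

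The RNA came from livers of wild-type (WT) mice with diet-induced obesity (DIO). The 4 groups received Rosuvastatin+GGOH (the combination), Rosuvastatin, GGOH or vehicle, and each group held 5 numbered livers, taken here as 5 mice. Rosuvastatin is a statin, an inhibitor of HMG-CoA reductase in the mevalonate pathway, and GGOH (geranylgeraniol) is an isoprenoid alcohol that cells can convert into geranylgeranyl diphosphate, a product of that pathway. Dose, duration, diet, age and sex are not given in the sources used here. Nothing in the labels ties a liver to a litter, cage or batch, so the p-values measure the spread between these 20 libraries.

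Cytochrome P450 enzymes of the endoplasmic reticulum insert an oxygen atom into lipophilic substrates, using electrons passed on by the reductase Por. The Cyp2c family handles drugs and steroids, and several mouse members turn arachidonic acid into epoxyeicosatrienoic or hydroxyeicosatetraenoic acids, lipid mediators with effects on vessels and inflammation. In liver, several family members, Cyp2c29 among them, are known targets of the xenobiotic receptor CAR (Nr1i3), while Cyp2c70 makes the muricholic acids that set mouse bile apart from human bile.

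Of the 10 genes, 9 lie in a single cluster on chromosome 19 of GRCm38, from 39269405 to 40187333, a span of 917929 bases in the GENCODE M21 annotation. Cyp2c44 lies on the same chromosome from 44005022 to 44029208, 3817688 bases beyond the cluster. In that annotation Cyp2c29 (39269405 to 39330713, plus strand) overlaps the neighbouring pseudogene Cyp2c53-ps by 5581 bases on the same strand. The pseudogene ends at 39274985, before the RefSeq start of Cyp2c29 at 39287085. Cyp2c70 (40153353 to 40187333, minus strand) closes the cluster at its other end.

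The RefSeq promoter windows of 4 members are shown because the results turn on them. Cyp2c29, Cyp2c50 and Cyp2c37 varied together from mouse to mouse, and Cyp2c70 was the gene with the lowest fold changes under either single compound. Each window holds 300 bases of GRCm38.p6, from 250 bases before to 50 bases after the RefSeq start site, written 5′ to 3′ on the strand of the gene. The RefSeq start of Cyp2c29, at 39287085, lies inside its longer GENCODE span. Capitals mark the searched motifs.
Cyp2c29, chr19:39286835-39287134, plus strand: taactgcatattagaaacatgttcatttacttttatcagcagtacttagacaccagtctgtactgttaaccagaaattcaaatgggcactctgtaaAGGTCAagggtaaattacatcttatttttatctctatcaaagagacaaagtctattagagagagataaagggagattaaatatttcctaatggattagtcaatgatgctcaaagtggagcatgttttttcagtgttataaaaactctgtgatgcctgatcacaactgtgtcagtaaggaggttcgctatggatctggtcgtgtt
Cyp2c50, chr19:40089429-40089728, plus strand: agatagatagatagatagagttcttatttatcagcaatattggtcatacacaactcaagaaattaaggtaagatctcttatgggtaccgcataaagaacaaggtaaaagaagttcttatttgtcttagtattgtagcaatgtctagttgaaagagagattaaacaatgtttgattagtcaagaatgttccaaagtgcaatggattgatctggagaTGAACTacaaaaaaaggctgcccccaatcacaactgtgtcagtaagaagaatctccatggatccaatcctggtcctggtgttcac
Cyp2c37, chr19:39992174-39992473, plus strand: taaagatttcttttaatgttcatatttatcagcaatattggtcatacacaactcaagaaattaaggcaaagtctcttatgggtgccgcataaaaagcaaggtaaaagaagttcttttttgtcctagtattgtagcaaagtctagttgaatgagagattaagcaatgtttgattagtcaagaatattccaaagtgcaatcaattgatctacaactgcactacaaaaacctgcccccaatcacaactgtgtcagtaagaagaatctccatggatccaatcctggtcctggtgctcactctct
Cyp2c70, chr19:40187237-40187536, minus strand: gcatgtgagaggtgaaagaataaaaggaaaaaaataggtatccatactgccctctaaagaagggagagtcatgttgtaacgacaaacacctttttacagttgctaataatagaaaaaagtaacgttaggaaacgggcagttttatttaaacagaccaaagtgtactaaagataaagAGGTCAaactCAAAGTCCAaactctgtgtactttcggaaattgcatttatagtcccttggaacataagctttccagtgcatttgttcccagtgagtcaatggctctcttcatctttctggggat

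The capitals in the Cyp2c29 window are AGGTCA, a nuclear receptor half-site, at position -154 relative to the start site. Those in the Cyp2c50 window are TGAACT, a variant half-site, at -35. The Cyp2c70 window held AGGTCA at -74 and CAAAGTCCA, an HNF4A-type motif, at -64, and the Cyp2c37 window held none of the searched motifs. On both strands, AGGTCA occurred in 16.3% of 32851 mouse promoter windows, TGAACT in 14% and CAAAGTCCA in 0.475%. CAAAGTCCA was also found in the windows of Cyp2c68 at -77 and Cyp2c40 at -45, so 3 of the 9 windows of the 8 matched members, Cyp2c39 having 2, held it. The C/EBP palindrome TTGCGCAA (0.183% of windows), the STAT5-type motif TTCNNNGAA (8.3%) and a direct repeat of AGGTCA with a spacer of 4 (0.0152%) were found in 0 of the 9 windows. A match is a stretch of letters in the window and was not tied to any measurement of binding.

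The windows of Cyp2c37 and Cyp2c50 were identical at 264 of 295 aligned bases (89.5%). Cyp2c29 and Cyp2c50 shared 70.4% of their aligned bases, and Cyp2c29 and Cyp2c37 69.5%. The Cyp2c70 window was the most distant from that of Cyp2c29, at 59.3%, whereas Cyp2c38, a close neighbour of Cyp2c29, shared 82% with it. The windows of Cyp2c68 and Cyp2c40 were identical at 94.4% of aligned bases.

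The members differed widely in level. In TPM, an abundance unit that corrects for transcript length and is not rescaled here between libraries, Cyp2c29 averaged 296 ± 110.0 TPM over all mice (SD, n = 20) and Cyp2c50 253 ± 84.9. Cyp2c29, Cyp2c50 and Cyp2c54 are epoxygenases of arachidonic acid in the mouse. Cyp2c68 followed at 184 ± 39.7 TPM, and Cyp2c37, which makes a hydroxyeicosatetraenoic acid, at 126 ± 44.7. Cyp2c54 stood at 73.5 ± 33.6 TPM, and Cyp2c70, the enzyme that makes muricholic acids, at 68.0 ± 27.0. The order of the most abundant genes was not fixed: Cyp2c29 exceeded Cyp2c50 in 11 of the 20 mice, and Cyp2c54 exceeded Cyp2c70 in 14.

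The other 4 members were lower. Cyp2c38 averaged 36.7 ± 13.5 TPM (SD, n = 20) and Cyp2c44, an epoxygenase best known from kidney and vessels, 28.9 ± 15.9 TPM, with Cyp2c38 the higher in 14 of 20 mice. Cyp2c39, a retinoic acid hydroxylase of mouse liver, averaged 4.99 ± 2.13 TPM, and Cyp2c40 was lowest at 1.50 ± 0.792 TPM. Cyp2c44 exceeded Cyp2c39, and Cyp2c39 exceeded Cyp2c40, in each of the 20 mice. Cyp2c40 rested on 10 to 73 estimated counts per library, so counting error alone is large for it, against 3074 to 14088 for Cyp2c29.

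The tables also hold Cyp2c symbols outside the 10. Cyp2c67 averaged 143 TPM, between the means of Cyp2c68 and Cyp2c37, while Cyp2c55 (1.56 TPM), Cyp2c69 (0.497 TPM), Cyp2c53-ps (0.182 TPM) and Cyp2c52-ps (0.181 TPM) were low. Cyp2c66 averaged 0.00234 TPM, and Cyp2c65 and Cyp2c73-ps were listed at 0 in every library. Summed over all Cyp2c symbols, the family reached 1296 ± 243 TPM with the combination, 1076 ± 83.2 with rosuvastatin, 1261 ± 273 with GGOH and 1241 ± 443 with vehicle (SD, n = 5 each). These sums overlapped between all 4 groups.

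**Figure D1:**
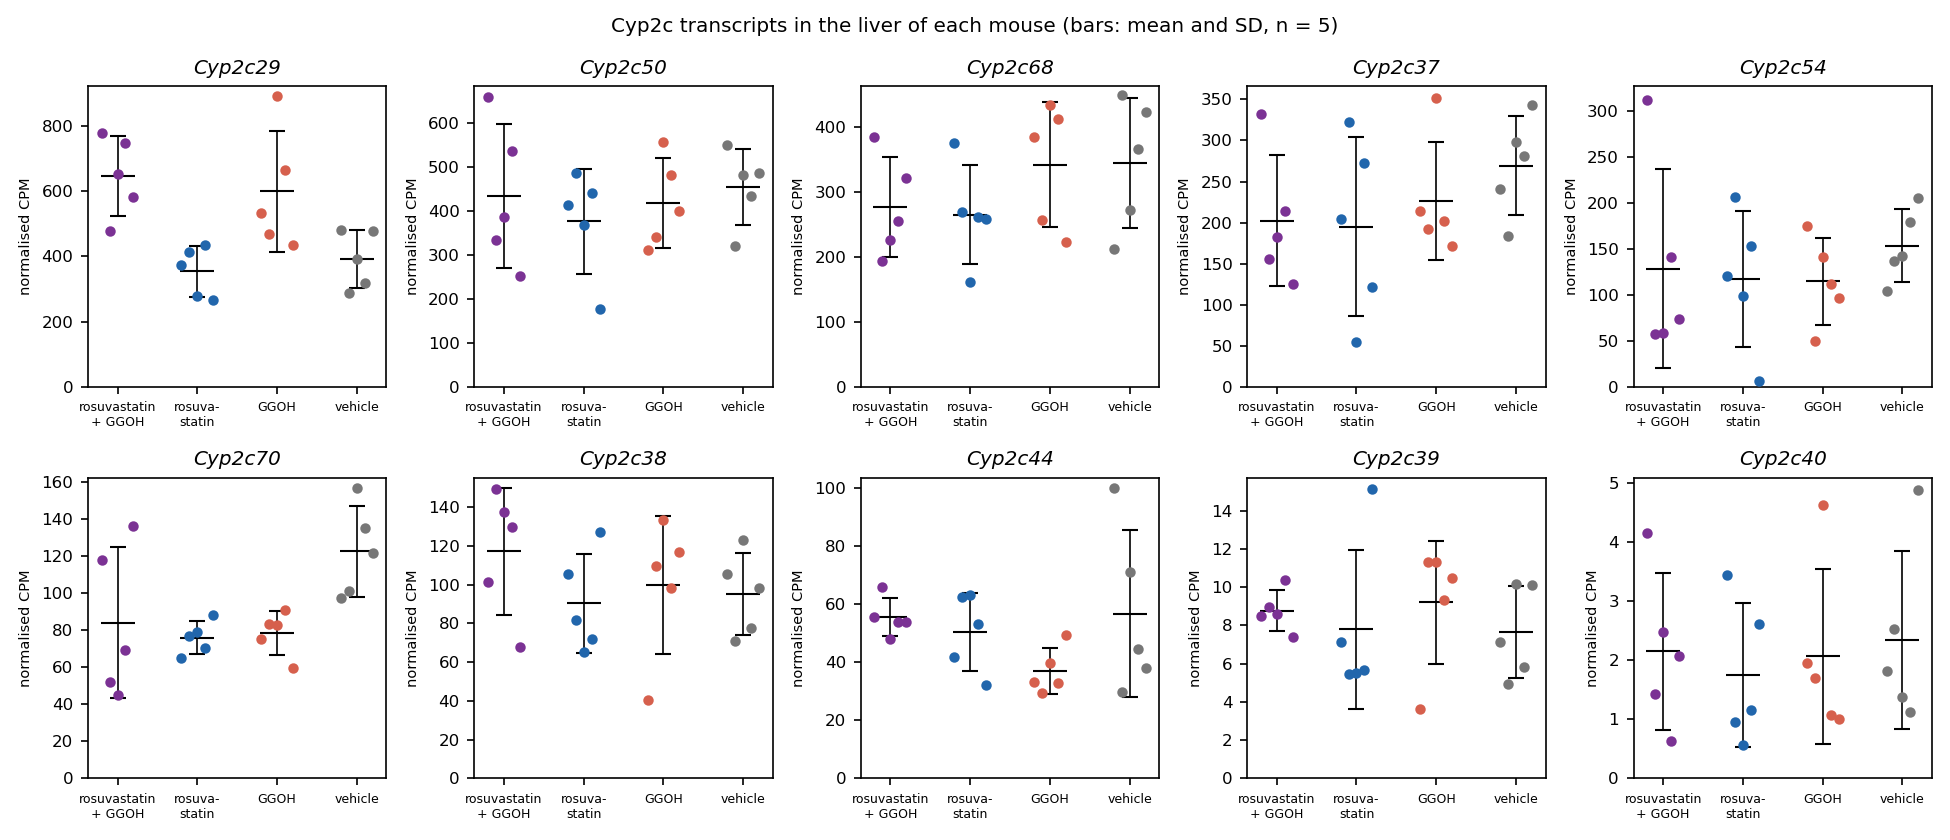
Normalised CPM of each member on the y axis, 1 point per mouse, with the mean and SD (n = 5) for Rosuvastatin+GGOH, Rosuvastatin, GGOH and vehicle. Cyp2c29 lies at 478 to 776 CPM with the combination, above the 266 to 435 CPM of the rosuvastatin mice, and Cyp2c70 lies at 65.2 to 87.9 CPM with rosuvastatin, below the 97.2 to 157 CPM of the vehicle mice.

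Libraries held 8548120 to 18373913 estimated counts. The share from mitochondrially encoded transcripts was 8.06 to 29.2%, and combination mice 2 and 3 stood apart with the 2 highest shares. Hepatocyte markers were abundant in every library, and 8 of 8 passed the low-count filter. Their summed TPM had medians of 49300 with the combination, 49010 with rosuvastatin, 50157 with GGOH and 50859 with vehicle, and the groups overlapped. Of 5 adipocyte markers, 1 passed the filter and Lep was at 0 in every library. Their summed TPM ran from 7.54 in a combination mouse to 54.4 in a vehicle mouse. Of 5 pancreatic markers 0 passed, and Cpa1, Ctrb1 and Pnlip were at 0 in every library. The pancreatic sums reached 0.478 TPM at most, in a rosuvastatin mouse. Summed pericentral markers, from the lobule zone where many P450 genes are most active, ranged from 3274 to 5986 TPM with the combination, 3919 to 6616 with rosuvastatin, 3110 to 5851 with GGOH and 3467 to 7953 with vehicle. The part of cell makeup in the differences below was not tested. In whole liver, fewer cells of a type and less RNA per cell cannot be told apart.

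Cyp2c29 averaged highest in the groups that received GGOH, with or without the statin. In CPM, counts scaled to library size with TMM factors, it had 776, 478, 651, 746 and 581 in combination mice 1 to 5, against 373, 413, 279.7, 435 and 266 CPM in rosuvastatin mice 1 to 5. It had 534, 469, 891, 666 and 435 CPM in GGOH mice, against 479, 287, 391, 319 and 478 CPM in vehicle mice. Every combination mouse was above every rosuvastatin mouse, whereas GGOH and vehicle mice overlapped between 435 and 479 CPM. In CPM, combination and vehicle mice overlapped only in that combination mouse 2, at 478 CPM, stood level with vehicle mice 1 and 5. In TPM they overlapped more widely, at 267 to 437 with the combination and 126 to 424 with vehicle. Vehicle mouse 1, at 424 TPM, was above combination mice 1, 2 and 5 and above GGOH mice 1, 2, 4 and 5. The 5 combination mice averaged 647 CPM with an SD of 122, the rosuvastatin mice 353 with an SD of 77.0, the GGOH mice 599 with an SD of 185 and the vehicle mice 391 with an SD of 88.3.

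The log2 fold change of Cyp2c29 was 0.87 ± 0.22 (SE) for the combination against rosuvastatin and 0.73 ± 0.22 for the combination against vehicle. Both are descriptions, since these contrasts had singled out the gene. Members are therefore not counted against a p threshold in them. As background, 1.69% of 12789 genes were at an unadjusted edgeR p under 0.05 in the first contrast and 5.50% in the second. The groups did not overlap in 0.266% of genes in the first and 0.758% in the second. After adjustment, edgeR called 0% of genes in either.

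All 10 members had a positive fold change for the combination against rosuvastatin, as had 52.6% of all genes. The median was 0.16 (log2) for the members and 0.01 for all genes. Members other than Cyp2c29 lay between 0.05 and 0.38, Cyp2c38 being the highest at 0.38 ± 0.27 (SE). Without combination mouse 1, 4 of the 10 were positive and the median was -0.03, and without rosuvastatin mouse 5, 7 were positive. With each mouse left out in turn the median reached 0.28 at most, without combination mouse 2. Against vehicle, 3 of 10 members and 50.8% of all genes were higher with the combination, and Cyp2c70 was at -0.54 ± 0.24. The member median was -0.09, against 0.01 for all genes. This member median was -0.37 without combination mouse 1 and -0.03 without combination mouse 2 or 3. Without both combination mice 2 and 3 it was 0.05, 6 members were higher and Cyp2c70 was at -0.16. Without vehicle mouse 1, 5 members were higher.

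**Figure D2:**
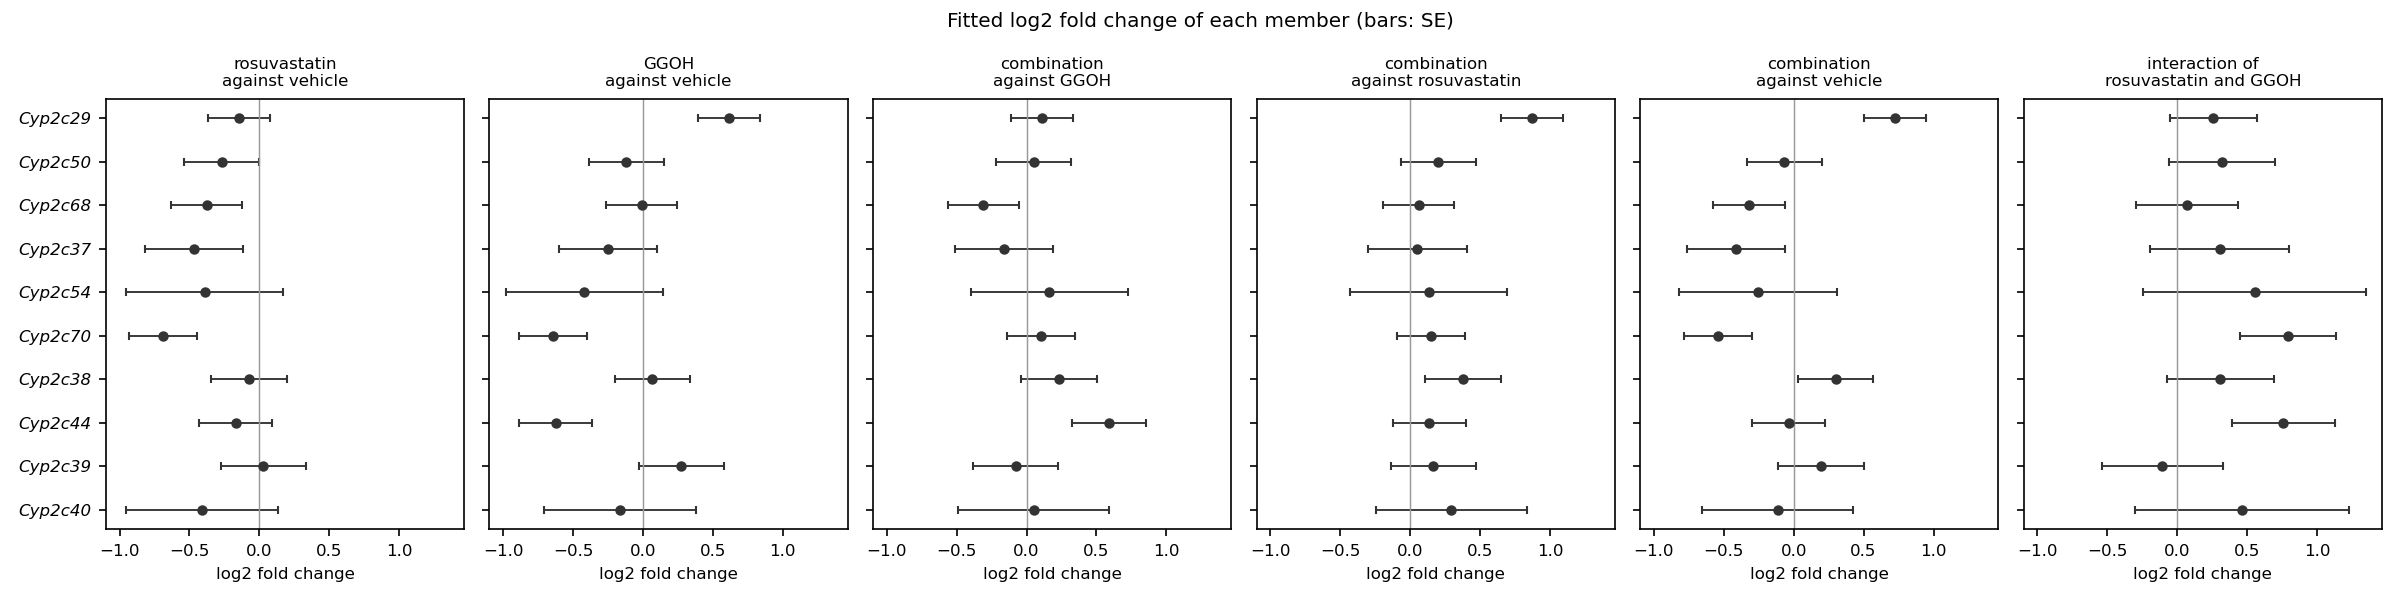
Fitted log2 fold change (x axis) of each member (y axis) in the 6 comparisons, with bars for the SE. Cyp2c29 lies at 0.62 for GGOH against vehicle, 0.87 for the combination against rosuvastatin and 0.73 for the combination against vehicle, and Cyp2c70 lies below 0 in all 3 comparisons with vehicle.

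Cyp2c29 also took a larger part of the family in mice given GGOH. Its share of the summed Cyp2c TPM was 25.3, 29.3, 34.2, 31.4 and 30.3% in combination mice, against 18.7, 19.6, 20.3, 22.0 and 21.3% in rosuvastatin mice. It was 25.1, 26.9, 30.7, 27.3 and 24.7% in GGOH mice, against 22.8, 15.2, 17.9, 15.0 and 19.0% in vehicle mice. The 10 mice with GGOH, at 24.7 to 34.2%, lay above the 10 without it, at 15.0 to 22.8%. Their means were 28.5 ± 3.16% with GGOH and 19.2 ± 2.63% without (SD, n = 10 each). The shares of each of the other 9 members overlapped between the mice with and without GGOH. A share needs no scaling between libraries, but it was worked out after the levels of Cyp2c29 were known and is given with no test. The mice with GGOH include the 5 combination mice, in which the gene had been noticed. The level of Cyp2c29 overlapped between mice with and without GGOH, at 435 to 891 CPM and 266 to 479 CPM. It also overlapped in TPM, with combination mouse 2 at 267 and vehicle mouse 1 at 424. How often other genes separate these mice was not worked out.

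**Figure D3:**
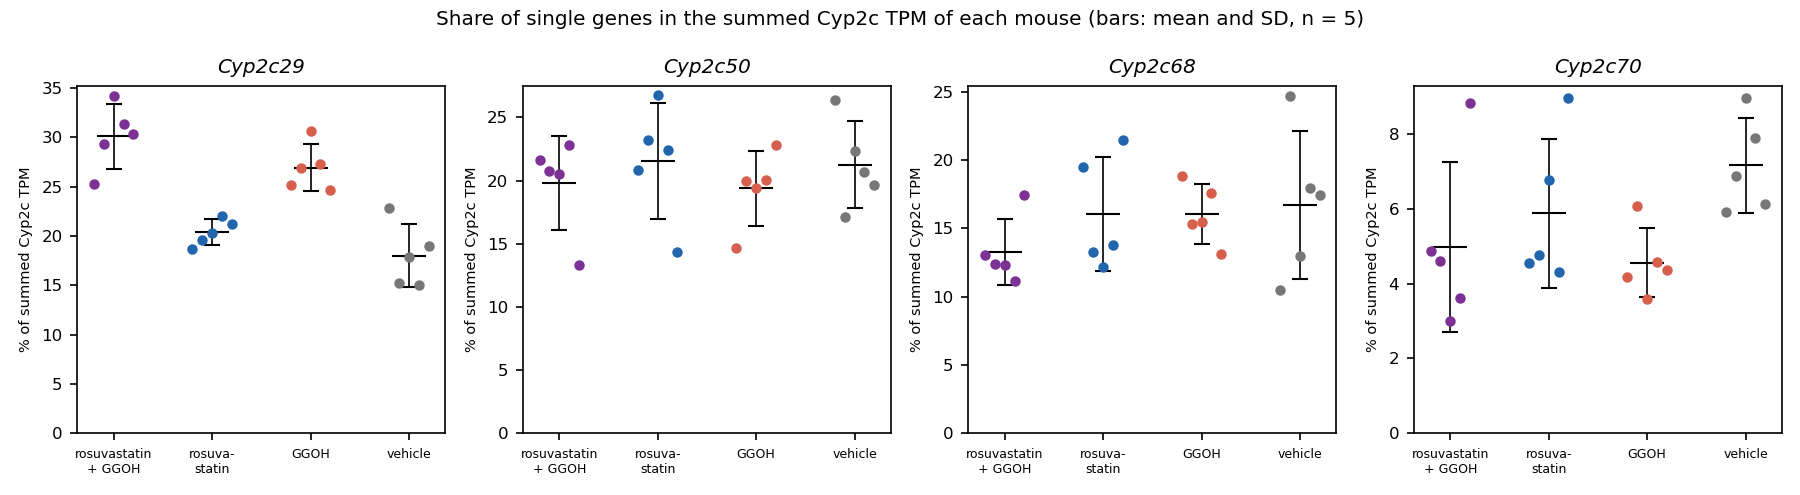
Share of the summed Cyp2c TPM (y axis, %) taken by Cyp2c29, Cyp2c50, Cyp2c68 and Cyp2c70 in each mouse, with the mean and SD (n = 5) of the 4 groups. The Cyp2c29 shares of the combination and GGOH mice, 24.7 to 34.2%, lie above those of the rosuvastatin and vehicle mice, 15.0 to 22.8%, while the other 3 genes overlap.

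Rosuvastatin was compared with vehicle to ask what the statin does in obese liver. The member with the lowest fold change was Cyp2c70. It had 65.2, 77.1, 79.2, 70.4 and 87.9 CPM in rosuvastatin mice, against 97.2, 101, 157, 135 and 122 CPM in vehicle mice. All 5 rosuvastatin mice were below all 5 vehicle mice, and the log2 fold change was -0.69 ± 0.24 (SE), 0.621 times the vehicle level. Over all genes this was not significant (edgeR quasi-likelihood F test, unadjusted p = 0.0102, adjusted p = 0.973). In TPM the groups overlapped, at 48.9 to 83.4 with rosuvastatin and 57.0 to 139 with vehicle.

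edgeR called 0 of the 10 members and 0% of 12789 genes for rosuvastatin against vehicle. Cyp2c70 was the member at an unadjusted p under 0.05, as were 3.69% of genes, and the member whose groups did not overlap, as in 0.516% of genes. Of the 10 members, 9 had a lower value with rosuvastatin and Cyp2c39 was at 0.03 ± 0.31, with a median of -0.32 for the members and -0.02 for all genes. Cyp2c37 was at -0.47 ± 0.35 (SE), Cyp2c40 at -0.41 ± 0.54 and Cyp2c68 at -0.38 ± 0.26. Cyp2c29 stood at -0.15 ± 0.22. None of these passed the threshold, and with limma on log2(TPM + 1) 5 of the 10 were higher with rosuvastatin.

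Cyp2c54 was very low in 1 mouse of the statin group. It had 121, 207, 98.6, 154 and 6.64 CPM in rosuvastatin mice, against 104, 137, 142, 179 and 206 CPM in vehicle mice. Rosuvastatin mouse 5 had 120 estimated counts and stood far below every other mouse of the study, whose lowest value was 49.4 CPM. The log2 fold change of -0.39 ± 0.56 (SE, edgeR adjusted p = 0.973) was -0.05 without that mouse.

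GGOH was compared with vehicle to measure the isoprenoid without the statin. This comparison shares its vehicle mice with that of rosuvastatin, and with the comparison of the combination with vehicle in which Cyp2c29 was noticed. Cyp2c29 was at 0.62 ± 0.22 (SE), 1.53 times the vehicle level (edgeR unadjusted p = 0.0110, adjusted p = 1.00). Without GGOH mouse 3, at 891 CPM, it was at 0.43. It did not pass the threshold over all genes.

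Cyp2c70 had 75.2, 83.3, 82.7, 90.6 and 59.4 CPM in GGOH mice, all below the vehicle mice given above. Its log2 fold change was -0.65 ± 0.24 (SE, edgeR unadjusted p = 0.0149, adjusted p = 1.00). As the vehicle mice are the same 5, the low values under both single compounds are not independent of each other. In TPM the groups overlapped, at 44.4 to 67.4 in GGOH mice and 57.0 to 139 in vehicle mice.

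Cyp2c44 had 33.3, 29.2, 39.5, 32.9 and 49.3 CPM in GGOH mice, against 99.9, 29.7, 71.1, 44.5 and 37.9 CPM in vehicle mice. The groups overlapped, and vehicle mouse 1 was the highest of the study. The log2 fold change was -0.62 ± 0.26 (SE, edgeR unadjusted p = 0.0271, adjusted p = 1.00), and -0.29 without vehicle mouse 1.

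For GGOH against vehicle, edgeR called 0 members and 0% of genes. Cyp2c29, Cyp2c70 and Cyp2c44 were the 3 members at an unadjusted p under 0.05 (2.86% of genes), with 1 left without vehicle mouse 3, and Cyp2c70 the 1 member whose groups did not overlap (0.430% of genes). Of the 10 members, 3 were higher with GGOH, Cyp2c39 at 0.27 ± 0.30 (SE) and Cyp2c38 at 0.07 ± 0.27 after Cyp2c29. Among all genes 46.9% were higher. The median was -0.14 for the members and -0.02 for all genes. It was -0.36 with 2 members higher without GGOH mouse 3, -0.05 with 5 higher without GGOH mouse 5 and -0.02 with 5 higher without vehicle mouse 5. Without GGOH mouse 2 it was -0.07. Cyp2c54 was at -0.42 ± 0.56, Cyp2c37 at -0.25 ± 0.35, Cyp2c40 at -0.16 ± 0.54, Cyp2c50 at -0.12 ± 0.27 and Cyp2c68 at -0.01 ± 0.26.

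The combination was compared with GGOH alone to measure the statin on top of the isoprenoid. Cyp2c44 had 55.4, 65.8, 48.0, 53.9 and 53.8 CPM in combination mice, against 33.3, 29.2, 39.5, 32.9 and 49.3 CPM in GGOH mice. GGOH mouse 5 reached into the combination range, and the other 4 GGOH mice lay below it. The log2 fold change was 0.59 ± 0.26 (SE, edgeR unadjusted p = 0.0355, adjusted p = 0.348). Cyp2c29 stood at 0.11 ± 0.22 (edgeR unadjusted p = 0.620, adjusted p = 0.797) and did not pass. The gene had been noticed in these same combination mice, so its p-values here are not independent of that choice.

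edgeR called 0 members and 0% of genes for the combination against GGOH. Cyp2c44 was the member at an unadjusted p under 0.05, against a share of 14.0% of all genes, and 0 members had groups that did not overlap (2.26% of genes). In this comparison 7 of 10 members and 50.9% of all genes were higher. The median was 0.08 for the members and 0.01 for all genes. Without combination mouse 1, 3 members were higher and their median was -0.11, and without GGOH mouse 3, 9 were higher and it was 0.21. With any other single mouse left out the median lay between -0.00273 and 0.15. The count at an unadjusted p under 0.05 was 0 without GGOH mouse 1, 2 or 4 or combination mouse 1 or 2. Cyp2c68 was at -0.31 ± 0.26 (SE) and Cyp2c38 at 0.23 ± 0.27.

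The interaction, which also uses the vehicle mice, asks whether the statin acts differently in the presence of GGOH. It was 0.79 ± 0.34 (SE, log2) for Cyp2c70 (edgeR unadjusted p = 0.0314, adjusted p = 0.999) and 0.76 ± 0.37 for Cyp2c44 (unadjusted p = 0.0528, adjusted p = 0.999). Combination mice had 118, 52.0, 45.1, 69.0 and 136 CPM of Cyp2c70, a wider spread than in any other group, and mice 2 and 3, with the high mitochondrial shares, were the lowest. Without those mice and vehicle mouse 1 the Cyp2c70 interaction was 1.21, and without combination mouse 5 it was 0.52. The Cyp2c44 interaction was 0.42 without vehicle mouse 1. For Cyp2c29, which had been noticed in the combination mice used here too, the interaction was 0.26 ± 0.31. edgeR called 0 members and 0% of genes, and Cyp2c70 was the member at an unadjusted p under 0.05 (2.89% of genes). The interaction was positive in 9 of 10 members and 52.3% of all genes. Its median was 0.32 for the members and 0.02 for all genes. Without combination mouse 1 it was positive in 7, with a median of 0.07, and the median was 0.48 without GGOH mouse 3 and 0.19 without rosuvastatin mouse 3. The count at an unadjusted p under 0.05 ran from 0 to 2 as single mice were left out. It was 0 without rosuvastatin mouse 1, vehicle mouse 3 or combination mouse 1 or 5, and 2 without rosuvastatin mouse 2 or 3 or vehicle mouse 2 or 5. DESeq2 and limma also called 0 members in each tested comparison.

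Within groups, some members varied together from mouse to mouse. After group means were removed, Cyp2c50 followed Cyp2c29 over the 20 mice with Pearson r = 0.757 (permutation p = 6e-05, adjusted over 9 tests 0.00054) and Spearman rho = 0.818 (adjusted p = 0.00027, permutation test). Cyp2c37 did so with r = 0.717 (permutation test, adjusted p = 0.000855) and rho = 0.779 (adjusted p = 0.00104). Cyp2c54 gave r = 0.527 (permutation test, adjusted p = 0.0203) and rho = 0.582 (adjusted p = 0.0209). The permutations moved mice within their group only, and their p-values test r and rho against 0. They do not ask whether members follow each other more closely than other genes do. The share of all genes with as high an r was not worked out. Outside the family, Cyp4a10 followed Cyp2c29 with r = 0.745, below Cyp2c50 and above Cyp2c37. Cyp2e1 followed Cyp2c50 with r = 0.851. Without GGOH mouse 3 and vehicle mouse 2, the mice farthest from the median of Cyp2c29, r was 0.725 for Cyp2c50, 0.677 for Cyp2c37 and 0.574 for Cyp2c54. The Cyp2c54 correlation with Cyp2c29 did not pass without rosuvastatin mouse 2 (adjusted p = 0.0723) or rosuvastatin mouse 5 (adjusted p = 0.114).

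The other 6 members did not pass against Cyp2c29, with r of 0.369 for Cyp2c68 (permutation test, adjusted p = 0.335) and lower values for the rest. Cyp2c38 and Cyp2c39, its nearest relatives by sequence, had r of 0.140 and 0.0707. Those 2 genes instead followed each other, with r = 0.856 and rho = 0.812 (permutation test, adjusted over 45 pairs, p = 0.00113 and 0.00293), and with r = 0.813 without the 2 mice farthest from the median of Cyp2c38. The test of all 45 pairs was added after the data were seen, and 3 pairs passed in it by r. The others were Cyp2c29 with Cyp2c50 and with Cyp2c37. In that wider test Cyp2c50 and Cyp2c54 had r = 0.763 (permutation test, adjusted p = 0.0602), and Cyp2c29 and Cyp2c54 also had an adjusted p of 0.0602. By rho 7 pairs passed. Beside the 3 named and these 2 pairs (adjusted p = 0.0439 each, permutation test), they were Cyp2c37 with Cyp2c50 (rho = 0.764, adjusted p = 0.00473) and with Cyp2c54 (rho = 0.744, adjusted p = 0.00567). By r those last pairs did not pass (permutation test, adjusted p = 0.132 and 0.491).

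**Figure D4:**
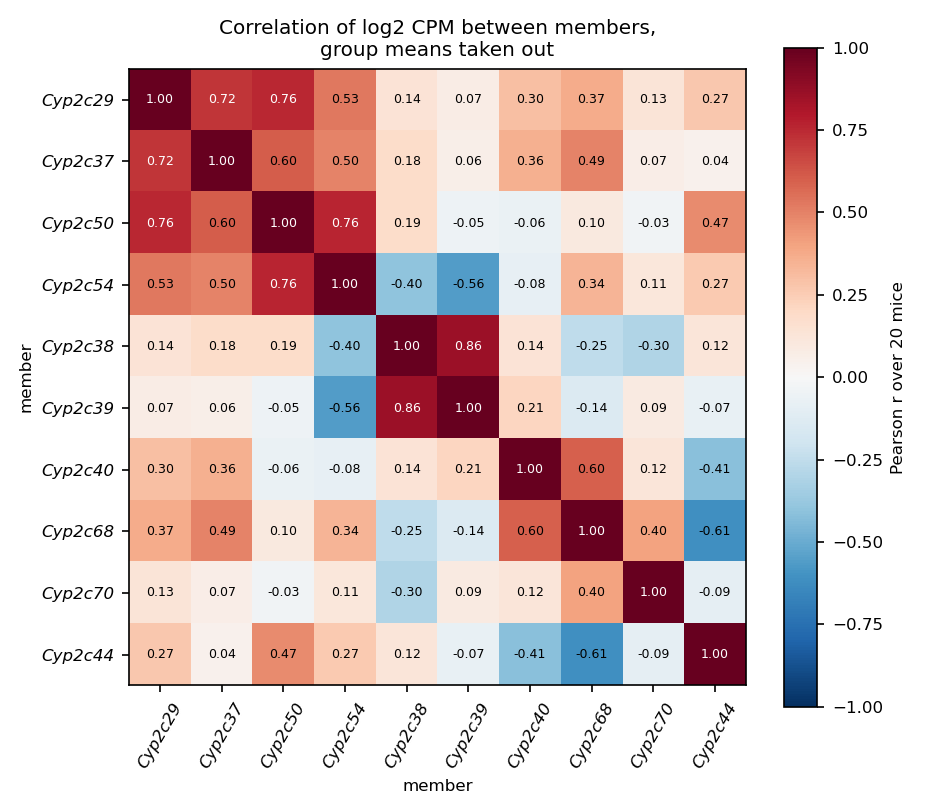
Pearson r of log2 CPM between members (both axes) over 20 mice after group means were removed, with the colour scale giving r. The highest values are 0.86 for Cyp2c38 with Cyp2c39, 0.76 for Cyp2c50 with Cyp2c54 and with Cyp2c29, and 0.72 for Cyp2c29 with Cyp2c37. Cyp2c37 with Cyp2c50 and Cyp2c40 with Cyp2c68 follow at 0.60, and the lowest value is -0.61 for Cyp2c44 with Cyp2c68.

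Related genes can share reads, and the program kallisto divides reads among transcripts that share words of 31 bases, the length it uses by default. In the GENCODE M21 transcripts, Cyp2c70 and Cyp2c44 shared 0% of their 31-base words with other Cyp2c genes. Cyp2c29 shared 9.36%, most of it with Cyp2c53-ps, which it overlaps. Cyp2c38 shared 16.2%, Cyp2c39 26.5% and Cyp2c50 29.2%. Cyp2c54 shared 42.3%, Cyp2c37 47.4%, Cyp2c68 62% and Cyp2c40 72.6%, and how reads were split between these 4 and their copies is uncertain. The annotation behind the authors' index is not given in the sources used here.

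Longest open reading frames showed the same groups: they were 98.1% identical between Cyp2c40 and Cyp2c68, 96.1% between Cyp2c37 and Cyp2c50, 95.2% between Cyp2c50 and Cyp2c54 and 94.2% between Cyp2c38 and Cyp2c39. The frame of Cyp2c29 was 83.5% identical to that of Cyp2c50 and 83.2% to that of Cyp2c37, the 2 genes that passed with it among all pairs, and 89.5% to that of Cyp2c39, which did not pass. The part of read sharing in the relations between close relatives was not tested. This holds for Cyp2c38 with Cyp2c39, for Cyp2c37, Cyp2c50 and Cyp2c54 with one another, and for Cyp2c40 with Cyp2c68. Cyp2c37 shared 34.2% of its words with Cyp2c50, and Cyp2c68 53.6% with Cyp2c40, against 22% for Cyp2c39 with Cyp2c38.

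**Figure D5:**
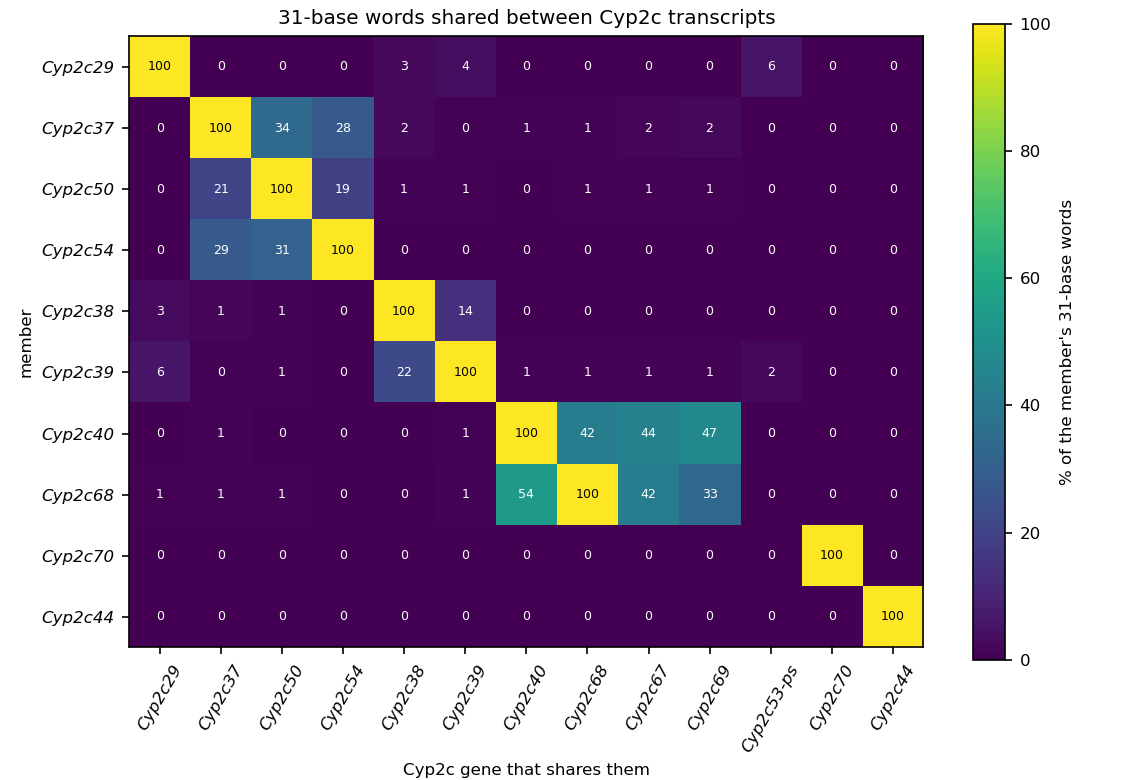
Percentage of the 31-base words of each member (y axis) found in another Cyp2c gene (x axis), rounded to whole numbers. Shared words fall into 3 blocks, Cyp2c37 with Cyp2c50 and Cyp2c54, Cyp2c38 with Cyp2c39, and Cyp2c40 with Cyp2c68, Cyp2c67 and Cyp2c69, while Cyp2c70 and Cyp2c44 share 0%.

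Close relatives were also summed, which leaves reads shared within a sum undivided. Cyp2c29, Cyp2c38 and Cyp2c39 together had 773 ± 121 CPM with the combination, 452 ± 69.7 with rosuvastatin, 708 ± 202 with GGOH and 494 ± 105 with vehicle (SD, n = 5 each). Their sum was at 0.52 ± 0.20 (SE, log2) for GGOH against vehicle (edgeR unadjusted p = 0.0169, adjusted p = 1.00). Cyp2c37, Cyp2c50 and Cyp2c54 together were at -0.35 ± 0.30 for rosuvastatin and -0.21 ± 0.30 for GGOH, each against vehicle. Cyp2c40, Cyp2c67, Cyp2c68 and Cyp2c69 together were at -0.33 ± 0.22 for rosuvastatin and 0.03 ± 0.22 for GGOH. edgeR called 0 of these sums in any tested contrast. The first sum, for GGOH against vehicle, was the 1 at an unadjusted p under 0.05 in those contrasts, as were 2.86% of single genes there. Cyp2c29 alone averaged 599 CPM with GGOH and 391 with vehicle, most of that sum. The value of the sum is therefore not a result separate from that of Cyp2c29.

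Outside the family, the genes most like Cyp2c29 over the 20 mice were Cyp4a10 (r = 0.745) and Cyp4a14 (r = 0.725), fatty acid omega-hydroxylases and targets of PPAR-alpha, then Pmm1 (0.677), Pym1 (0.671) and Serpinf1 (0.670). Here r is Pearson's r of log2 CPM with group means removed, ranked among the 10109 genes whose average log2 CPM reached 1, and it is given with no test. The genes most like Cyp2c70 were Alyref2 (r = 0.816), Limd2 (0.769), Adprh (0.753), Polr1c (0.735) and Nptn (0.734). Other members had closer partners, picked here after their values were seen. Cyp2c54 came nearest to Slco1a1 (r = 0.912), an organic anion transporter, then Cyp7b1 (0.891), an oxysterol hydroxylase, and Tspan33 (0.865). Cyp2c68 came nearest to Akr1d1 (0.934), a steroid reductase of bile acid synthesis, and Cyp2c50 to the pericentral P450 gene Cyp2e1 (0.851).

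The receptors and partners of the family showed no called difference. Nr1i3 (CAR) averaged 283 CPM with the combination, 242 with rosuvastatin, 221 with GGOH and 272 with vehicle, and Nr1i2 (PXR) averaged 35.7 CPM with the combination, 36.4 with rosuvastatin, 35.8 with GGOH and 33.6 with vehicle. The log2 fold change for GGOH against vehicle was -0.30 ± 0.28 (SE) for Nr1i3 and 0.09 ± 0.15 for Nr1i2. Por, the electron donor of the P450 enzymes, was at -0.17 ± 0.23 for GGOH and -0.41 ± 0.23 for rosuvastatin, each against vehicle. Hnf4a, a transcription factor of hepatocytes, was at -0.21 ± 0.24 for GGOH and 0.27 ± 0.24 for rosuvastatin.

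The other targets of CAR and PXR differed from gene to gene. Cyp2b10, the P450 gene most often used to read CAR activity, had 3.92 to 9.02 CPM with the combination, 0.227 to 1.72 with rosuvastatin, 0.976 to 3.95 with GGOH and 0.0940 to 1.24 with vehicle. Combination mice lay above all rosuvastatin and vehicle mice, and overlapped GGOH mice at the edge. Cyp2b10 rested on 1 to 19 estimated counts per vehicle library and 4 to 31 per rosuvastatin library, so counting error is large there. The log2 fold change of Cyp2b10 was 2.98 ± 0.50 (SE) for the combination against rosuvastatin, 1.76 ± 0.51 for GGOH against vehicle (edgeR unadjusted p = 0.00227, adjusted p = 1.00) and 1.27 ± 0.45 for the combination against GGOH (unadjusted p = 0.0101, adjusted p = 0.348). Cyp3a11, a PXR target, was at 0.76 ± 0.27 for GGOH against vehicle (unadjusted p = 0.0106, adjusted p = 1.00) and 0.05 ± 0.27 for the combination against rosuvastatin. Of the 24 genes on this list, edgeR called 0 in each comparison, and 13 were higher for GGOH against vehicle, with a median of 0.08. At an unadjusted p under 0.05 there were 1 higher and 1 lower for rosuvastatin against vehicle (3.69% of all genes), 3 higher for GGOH against vehicle (2.86%), 4 higher for the combination against GGOH (14.0%) and 0 in the interaction (2.89%).

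Lists around the family showed the same count of calls, 0 in each of the 6 comparisons: 30 xenobiotic receptors and liver transcription factors, 15 genes of P450 electron transfer and heme supply, 14 tested genes of arachidonic acid oxidation and epoxide hydrolysis, 16 of bile acid synthesis and 19 tested other hepatic P450 genes. Counts at an unadjusted p under 0.05 are given in that order of lists. For rosuvastatin against vehicle they were 3, 1, 3, 1 and 3 (3.69% of all genes), and for GGOH against vehicle 3, 1, 0, 0 and 0 (2.86%). For the combination against GGOH they were 0, 2, 2, 3 and 4 (14.0%), and in the interaction 1, 1, 2, 0 and 0 (2.89%). For rosuvastatin against vehicle their medians ran from -0.16 to 0.06 (log2). The largest absolute values were those of Bcl6, a repressor of liver genes (-0.93 ± 0.42, SE), Hmox1, which breaks down heme (0.64 ± 0.31), and the glutathione transferase Gsta1 (1.60 ± 0.67). Cyp4a12b, a fatty acid hydroxylase, was at 2.86 ± 0.90, Cyp46a1, a cholesterol hydroxylase, at 0.85 ± 0.54, and Cyp51, the sterol demethylase of cholesterol synthesis, at 1.35 ± 0.50. Rosuvastatin mice spread widely, from 0.664 to 52.6 CPM of Cyp4a12b (median 8.36) and from 2.72 to 37.5 CPM of Gsta1 (median 7.84). For GGOH against vehicle the largest were Bcl6 (-1.16 ± 0.42), Hmox1 (0.82 ± 0.31), Cyp2b10, Cyp4a12b (1.35 ± 0.89), Cyp46a1 (0.57 ± 0.54) and Cyp26b1, a retinoic acid hydroxylase (-0.74 ± 0.54). With rosuvastatin Cyp7a1, the first enzyme of bile acid synthesis, stood at -0.18 ± 0.27 and Cyp8b1, which sets the share of cholic acid, at 0.33 ± 0.20.

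For the combination against GGOH the list genes with the largest absolute values were Onecut1 (0.93 ± 0.76, SE), Ppox of heme synthesis (0.49 ± 0.17), Cyp2a4 (1.43 ± 0.69), Pla2g4a (-0.73 ± 0.32), the oxysterol hydroxylase Cyp39a1 (-0.66 ± 0.18) and Cyp2d34 (1.11 ± 0.44). In the interaction they were Bcl6 (1.59 ± 0.59), Hmox1 (-0.99 ± 0.44), Cyp2b10 (1.22 ± 0.71), Cyp4a12b (-2.53 ± 1.21), Cyp39a1 (-0.48 ± 0.25) and Cyp2d34 (0.97 ± 0.62). For the combination against rosuvastatin they were Onecut1 (1.86 ± 0.79), Ppox (0.30 ± 0.17), Cyp2b10, Cyp4a12b (-1.18 ± 0.82), Cyp39a1 (-0.33 ± 0.18) and Cyp51 (-1.02 ± 0.50). Against vehicle, the combination had Onecut1 at 1.66 ± 0.79, Ppox at 0.48 ± 0.17, Cyp2b10 at 3.03 ± 0.51, Cyp4a12b at 1.68 ± 0.89, Cyp46a1 at 1.05 ± 0.55 and Cyp2d34 at 0.74 ± 0.43. Onecut1 and Cyp2a4 reached their highest values, 41.6 and 50.4 CPM, in the combination group, with medians of 4.21 and 5.80 CPM there.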

How the data were processed

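Liver poly(A) RNA was sequenced as paired reads, per the labels' protocols. The 20 livers, in 4 groups of 5, are taken here as 20 mice. The submitters' processing notes name kallisto 0.44.0, bcl2fastq 2.19, the build GRCm38 (mm10) and, without a version, DESeq2. The authors deposited estimated counts per gene, which are whole numbers here, and TPM values, which they scaled for transcript length and depth. The unnamed entry, at 0.00801 to 0.0157% of counts, was left out. Precision rests on 8548120 to 18373913 counts per library.

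The deposited estimated counts went into edgeR 4.0.16 (R 4.3.3) and its quasi-likelihood F test, in 1 group-means model over all 20 libraries, with TMM scaling, the default low-count filter (12789 genes, all 10 members included) and Benjamini-Hochberg adjustment over all genes at 0.05. CPM are TMM-scaled, whereas TPM are not, so a gene can overlap between groups on the one and not on the other. SE was derived from the F statistic. Correlations used log2 CPM with group means removed and 100000 permutations within groups. The edgeR script was tested on simulated data.

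The members, gene lists and tests were chosen with earlier results of these data known. Named genes are the members, the other Cyp2c symbols, 8 receptor and P450 genes (Nr1i3, Nr1i2, Por, Cyp2b10, Cyp3a11, Hnf4a, Cyp7a1, Cyp8b1), the gene with the largest absolute fold change per list and comparison among those whose average log2 CPM reached 1, and the 5 genes most like Cyp2c29 and Cyp2c70. Alternatives were RLE factors, DESeq2 1.42.0, limma 3.58.1 on log2(TPM + 1) and log2(TPM + 0.1), other filters, only the groups compared, a replicate block, transcript length offsets, mitochondrial transcripts left out, relatives summed, and libraries left out. Promoters came from RefSeq (GRCm38.p6, 8 of 10 members matched), positions and transcripts from GENCODE M21. Open reading frames took the place of the protein comparison planned. No 2 libraries were alike beyond a correlation of 0.978 in log2 CPM.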

Additional observations from a re-analysis of the deposited data

Results flagged for a closer look

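Of the 40 sets of 5 mice looked at (10 members in 4 groups), 4 held 1 mouse far from the other 4, and about 2 are expected by chance, since the rule (Dixon's ratio above 0.71) flags about 1 in 20. GGOH mouse 3 had 351 CPM of Cyp2c37, against 172 to 215 in the other GGOH mice. The same mouse had 4.61 CPM of Cyp2c40, against 1.01 to 1.95. Rosuvastatin mouse 5 had 15.2 CPM of Cyp2c39, against 5.45 to 7.16 in the other rosuvastatin mice, and it is the mouse with the low Cyp2c54. GGOH mouse 1 had 3.61 CPM of Cyp2c39, against 9.31 to 11.3 in the other GGOH mice.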

How the results depend on the processing

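The count of called members stayed at 0 in each tested comparison under all alternatives run, DESeq2, limma and each left-out library included. The replicate block also called 0 members in each. Whether replicate numbers pair these mice is not given in the labels, and correlations of expression cannot settle it. Between same-numbered mice of 2 groups they ran from -0.443 to 0.474 over 30 pairs. Of these, 10 were above 0.1, and 5 of 20 libraries were most like one of their own number. With the block, 0 members were at an unadjusted p under 0.05 in the interaction, against 1 without it. Over 32 alternatives, 108 of 1920 recomputed member fold changes changed sign, in 30 of 60 values, all from members that were not called. Those of Cyp2c29 for GGOH against vehicle kept their sign at 0.43 to 0.72, and those of Cyp2c70 for rosuvastatin against vehicle at -0.75 to -0.46. With limma on either TPM scale, 1 member was at an unadjusted p under 0.05 for GGOH against vehicle, against 3 with edgeR. In each other tested comparison, rosuvastatin against vehicle included, it was 0, against 1 with edgeR. With limma on log2(TPM + 1), the median of all genes for rosuvastatin against vehicle was 0.11, and with log2(TPM + 0.1) it was 0.18, against member medians of -0.05 and -0.07, so the members stood lower relative to all genes there too. With log2(TPM + 0.1) the all-gene median was 0.14 for the combination against vehicle and -0.13 for the interaction. The correlation of Cyp2c54 with Cyp2c29 did not pass on log2(TPM + 1) (permutation test, adjusted p = 0.0795). Over all genes, DESeq2 called 4 genes for rosuvastatin against vehicle, 1 for GGOH against vehicle, 2 for the combination against rosuvastatin and 4 for the combination against vehicle, where edgeR called 0. Depth limits Cyp2c40 and Cyp2c39 most, with as few as 10 and 37 estimated counts in a library.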
